A study of Mus musculus with 12 samples.

Results

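The ADAMTS metalloproteases described here are 8 secreted proteases, Adamts1, Adamts2, Adamts4, Adamts5, Adamts7, Adamts9, Adamts10 and Adamts15, measured by expression array in isolated mouse glomeruli after exposure to TNF. Every probe set annotated to 1 of these genes alone was taken, whatever its values. This gave 14 of the 45037 probe sets that are not controls, for 7 of the 8 genes: 4 for Adamts5, 3 for Adamts9, 2 each for Adamts4 and Adamts10, and 1 each for Adamts1, Adamts7 and Adamts15. No listed probe set matched Adamts2, so it has no value here. The 12 arrays came from 4 genotypes with 3 arrays each: Tnfr1,2-/- (both TNF receptor genes deleted), Tnfr1-/- (TNF receptor 1, Tnfrsf1a, deleted), Tnfr2-/- (TNF receptor 2, Tnfrsf1b, deleted) and wildtype, all male mice of 6 to 8 weeks. The single mutants were B6.129 lines with whole-body deletions, and both the Tnfr1,2-/- mice and the C57BL/6J wildtype controls, which carry neither deletion, were bred from them. Each array was hybridized with labelled material from a separate preparation of 5000 glomeruli, which had been kept in culture, serum starved and then exposed for 12 hours to murine TNF at 50 ng/ml. All 4 genotypes received TNF, and glomeruli without TNF were not analysed here, so every comparison is between genotypes under TNF.

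ADAMTS proteases are zinc-dependent enzymes that are secreted and act on the extracellular matrix around the cell. Adamts1, Adamts4, Adamts5, Adamts9 and Adamts15 belong to the group that cleaves the large hyaluronan-binding proteoglycans aggrecan and versican. Adamts7 cleaves cartilage oligomeric matrix protein, Adamts2 removes the amino-terminal propeptide of fibrillar procollagens, and Adamts10 binds fibrillin microfibrils. In the glomerulus, extracellular matrix lies in the mesangium and in the capillary wall. TNF acts on resident cells through TNF receptor 1, which signals to NF-kB and AP-1 transcription factors, and through TNF receptor 2.

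The values are log2 signals normalized across all 12 arrays by the robust multichip average, with array medians between 5.59 and 5.64. A probe set was called when its adjusted p in limma (Benjamini-Hochberg over all 45037 probe sets of a comparison) was under 0.05 and its change was at least 1.5-fold. A gene was called when at least 1 of its probe sets was. The gap between the 3′ and the 5′ beta-actin control probe sets, a measure of how complete the labelled RNA was, split the arrays into set 1 (7 arrays, gap of 0.667 to 1.01 log2 units) and set 2 (5 arrays, gap of 1.82 to 2.30), and set 2 held replicates 2 and 3 of Tnfr1,2-/- and replicate 3 of each other genotype. Tnfrsf1a was lower in Tnfr1,2-/- glomeruli (log2 change of -1.27, adjusted p = 0.045) and did not pass the test in Tnfr1-/- glomeruli (-0.82, adjusted p = 0.36). For Tnfrsf1b, 1418099_at was lower in Tnfr1,2-/- glomeruli (-2.15, adjusted p = 0.015) and did not pass in Tnfr2-/- glomeruli (-2.30, adjusted p = 0.27), while 1448951_at changed by -0.09 and -0.47. A probe set outside the deleted part does not check a deletion. The 4 measured podocyte markers, the defining cells of this tissue, averaged between 10.14 and 11.58 on the 12 arrays, and 4 of 6 tubular markers (Slc34a1, Lrp2, Slc12a1 and Cubn) lay under the median signal. Fewer cells of a type and less RNA per cell cannot be told apart in such tissue.

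Adamts9 and Adamts7 were the members called lower where TNF receptor 1 was missing, and no member rose by the test in any comparison. Every Adamts9 call came from 1437785_at, 1 of its 3 probe sets. Against wildtype, Adamts9 was called lower in Tnfr1,2-/- and in Tnfr1-/- glomeruli, and it was the one gene of the 7 called in each. Adamts7 had a larger change relative to wildtype that did not pass the test. It was called, with Adamts9, in Tnfr1,2-/- against Tnfr2-/- and when the 6 arrays without TNF receptor 1 were set against the 6 with it. Adamts4 had lower values and Adamts5 higher values without TNF receptor 1, and neither passed.

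Called genes were rare in the whole series. Of all 18193 genes, 0.792% were called lower and 0.297% higher in Tnfr1,2-/- against wildtype, where 1 member was lower and 0 were higher. In Tnfr1-/- against wildtype the shares were 0.665% and 0.374%, beside 1 and 0 members. In Tnfr1,2-/- against Tnfr2-/- they were 0.967% and 0.275%, beside 2 and 0 members, and over 6 arrays against 6 they were 1.57% and 0.89%, beside 2 and 0 members. In Tnfr2-/- against wildtype, limma called 0 of the 7 member genes, beside 0% of all genes, and 0 of their 14 probe sets had an unadjusted p under 0.05. The SAM statistic called none of them either. Over all 45037 probe sets, limma called 1 lower and 0 higher, and SAM called 5 lower and 0 higher. In Tnfr1,2-/- against Tnfr1-/- these 3 member counts were also 0. There limma called 0.0055% of all genes lower and 0% higher, and SAM called 2 probe sets lower and 2 higher. The median log2 change of the 14 probe sets stayed close to that of all probe sets, at 0.03 against 0.01 in Tnfr1,2-/- glomeruli, -0.14 against 0 in Tnfr1-/- glomeruli and 0.09 against -0.01 in Tnfr2-/- glomeruli, each relative to wildtype.

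**Figure D1:**
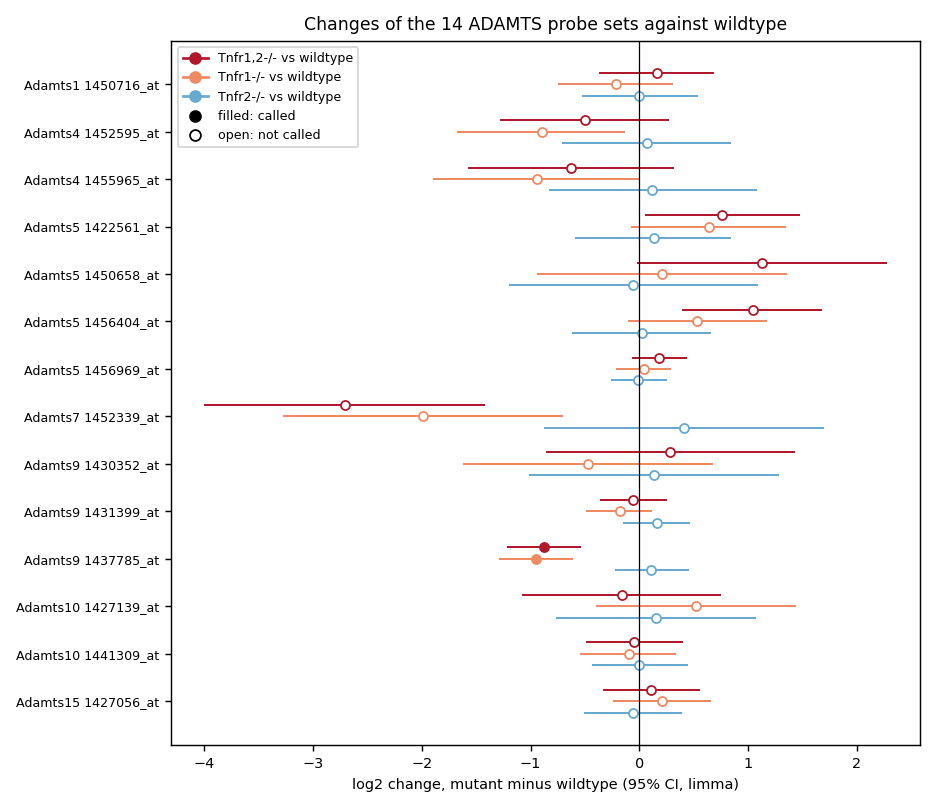
Log2 change of each of the 14 ADAMTS probe sets in Tnfr1,2-/-, Tnfr1-/- and Tnfr2-/- glomeruli relative to wildtype on the horizontal axis, with the 95% confidence interval from limma (n = 3 arrays per genotype), filled where the probe set was called. The 2 filled points are those of Adamts9 1437785_at at -0.88 and -0.95, and the Adamts7 points lie farther left at -2.71 and -1.99 with wide intervals.

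Adamts9, a protease of aggrecan and versican found in many tissues, was represented by 3 probe sets that did not behave alike. Its signal at 1437785_at was 9.72, 9.73 and 9.87 in Tnfr1,2-/- glomeruli, 9.81, 9.43 and 9.89 in Tnfr1-/- glomeruli, 10.95, 10.56 and 10.80 in Tnfr2-/- glomeruli and 10.59, 10.62 and 10.76 in wildtype glomeruli. All 6 arrays without TNF receptor 1 were thus below all 6 arrays with it, the highest of the first at 9.89 and the lowest of the second at 10.56. The change relative to wildtype was -0.88 (SE 0.15, 95% confidence interval -1.21 to -0.55, adjusted p = 0.024) in Tnfr1,2-/- glomeruli, which is 1.84-fold lower. In Tnfr1-/- glomeruli the change was -0.95 (SE 0.15, adjusted p = 0.017), which is 1.93-fold lower. Tnfr2-/- glomeruli overlapped with wildtype (0.11, 95% confidence interval -0.22 to 0.45, adjusted p = 1).

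The lower Adamts9 signal at 1437785_at was also found where TNF receptor 2 was absent on both sides. Relative to Tnfr2-/- glomeruli, Tnfr1,2-/- glomeruli changed by -1 log2 units, which is 2-fold lower (limma, adjusted p = 0.011). Over 6 arrays against 6, the change was -0.97 (SE 0.106, adjusted p = 0.00064). Between Tnfr1,2-/- and Tnfr1-/- glomeruli it was 0.07 (95% confidence interval -0.26 to 0.40, adjusted p = 0.98). The 3 arrays of a genotype limited these tests. Leaving out any 1 of the 6 arrays of Tnfr1,2-/- and wildtype raised the adjusted p of that comparison to between 0.061 (without Tnfr1,2-/- replicate 3) and 0.11 (without wildtype replicate 2 or 3, or Tnfr1,2-/- replicate 2), over the threshold in each of the 6 fits, while the change stayed between -0.93 and -0.83. In Tnfr1-/- against wildtype the call was lost without any wildtype array or without Tnfr1-/- replicate 1 or 2 (adjusted p of 0.052 to 0.085), and was made without Tnfr1-/- replicate 3 (0.037). In Tnfr1,2-/- against Tnfr2-/- it was lost without Tnfr1,2-/- replicate 2 (0.059) and without Tnfr2-/- replicate 1 (0.067) or 3 (0.053). The 6-against-6 call was made in all 12 fits that left out 1 array (adjusted p between 0.001 and 0.0032). Within array set 1 the change relative to wildtype was -0.88 in Tnfr1,2-/- and -0.99 in Tnfr1-/- glomeruli, and within set 2 it was -0.96 and -0.87.

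**Figure D2:**
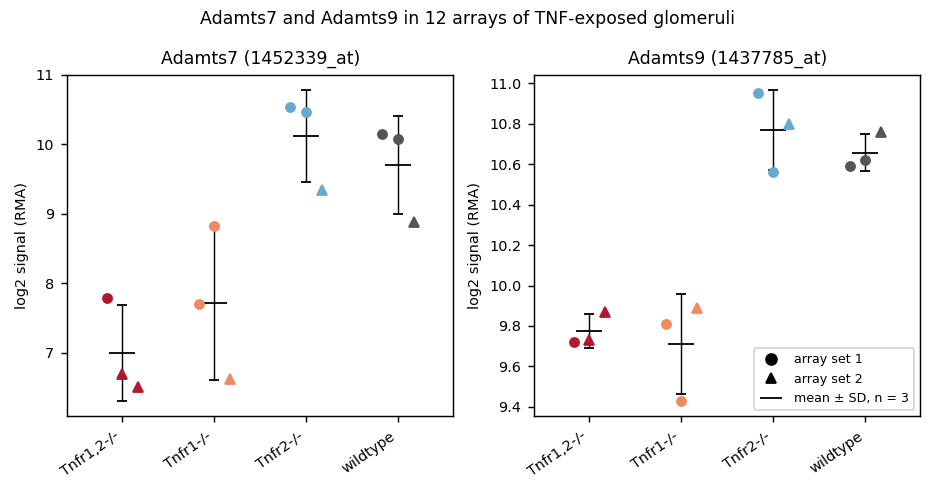
Log2 signal (RMA) of Adamts7 1452339_at and Adamts9 1437785_at on each of the 12 arrays by genotype, with circles for array set 1, triangles for array set 2 and bars for mean ± SD of 3 arrays. For both genes the 6 arrays of Tnfr1,2-/- and Tnfr1-/- lie below the 6 arrays of Tnfr2-/- and wildtype, with a clear gap for Adamts9 (9.89 against 10.56) and nearly none for Adamts7 (8.83 against 8.89).

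The other Adamts9 probe sets gave no call. At 1431399_at the signal was 6.17, 6.42 and 6.60 in Tnfr1,2-/- glomeruli, 6.31, 6.21 and 6.30 in Tnfr1-/- glomeruli, 6.61, 6.63 and 6.60 in Tnfr2-/- glomeruli and 6.25, 6.54 and 6.57 in wildtype glomeruli, within 0.46 log2 units in all. At 1430352_at it was 7.33, 7.77 and 8.96 in Tnfr1,2-/- glomeruli, 7.05, 6.59 and 8.15 in Tnfr1-/- glomeruli, 7.64, 7.87 and 8.09 in Tnfr2-/- glomeruli and 7.18, 7.35 and 8.68 in wildtype glomeruli. The highest value of every genotype at 1430352_at was on replicate 3, an array of set 2. Over 6 arrays against 6, the changes were -0.20 (limma, adjusted p = 0.60) at 1431399_at and -0.16 (adjusted p = 0.96) at 1430352_at. On the same arrays, the signal of 1437785_at minus that of 1431399_at averaged 3.41 without TNF receptor 1 and 4.18 with it, and the signal of 1437785_at minus that of 1430352_at averaged 2.10 and 2.91 (n = 6 each). These differences are a description without a test, since 1437785_at was singled out for its own separation of the arrays. When the 3 probe sets were averaged to 1 value per gene, Adamts9 changed by -0.22 (limma, adjusted p = 0.87) in Tnfr1,2-/- and by -0.53 (0.73) in Tnfr1-/- glomeruli relative to wildtype, and by -0.44 (0.29) over 6 arrays against 6. All Adamts9 calls rest on 1437785_at.

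In the RefSeq annotation of GRCm38.p6, Adamts9 spans chr6:92772699-92944450 on the minus strand, and Tnfrsf1a lies on the same chromosome, 32.4 Mb away. Both Tnfr1 mutants descend from a B6.129 line, and the strain origin of the Adamts9 region was not tested. Because TNF receptors signal to NF-kB and AP-1, the promoter windows that RefSeq gives for members (300 bases around a start site) were searched on both strands for the AP-1 motif TGANTCA and for the NF-kB consensus, in a strict form with A or T at the sixth base and a looser form with any base there. Windows were given for 3 members, Adamts9, Adamts1 and Adamts2, and none held TGANTCA or the strict form. The Adamts9 window held 1 match to the looser form, shown in capitals, and the strict form lies within the looser one. Among all 32851 promoter windows, 4.51% held the strict form, 8.46% the looser form and 7.81% TGANTCA. A match is a description of letters and not a binding site. A window without these letters says nothing of binding elsewhere. The Adamts9 window lies wholly inside the gene span given above and does not hold the 5′ end of that span. The windows of Adamts9, the member called against wildtype, and of Adamts1, a member of the same substrate group that was not called, are shown 5′ to 3′ on the minus strand of chr6:92943485-92943784 and chr16:85803064-85803363.
Adamts9: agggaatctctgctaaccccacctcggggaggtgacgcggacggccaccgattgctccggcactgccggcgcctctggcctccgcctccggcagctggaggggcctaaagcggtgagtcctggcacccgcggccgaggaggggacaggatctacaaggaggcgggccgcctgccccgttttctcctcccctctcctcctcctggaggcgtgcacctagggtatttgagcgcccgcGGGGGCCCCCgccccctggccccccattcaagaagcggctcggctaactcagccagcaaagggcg
Adamts1: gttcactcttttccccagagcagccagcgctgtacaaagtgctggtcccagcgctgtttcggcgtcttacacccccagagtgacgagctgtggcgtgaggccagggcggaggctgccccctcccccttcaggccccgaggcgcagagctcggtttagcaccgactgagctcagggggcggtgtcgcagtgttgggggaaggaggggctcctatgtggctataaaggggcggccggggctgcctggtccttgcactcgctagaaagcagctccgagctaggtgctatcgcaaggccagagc
They hold 25 CG dinucleotides at 70% G and C (Adamts9) and 18 at 64.7% (Adamts1).

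Adamts4 and Adamts5 are the main aggrecanases, the enzymes that cleave aggrecan in cartilage. Adamts4 at 1452595_at was 7.73, 7.14 and 8.64 in Tnfr1,2-/- glomeruli, 7.88, 6.86 and 7.57 in Tnfr1-/- glomeruli, 8.39, 8.42 and 8.41 in Tnfr2-/- glomeruli and 8.12, 8.54 and 8.37 in wildtype glomeruli. At 1455965_at it was 6.94, 6.67 and 7.33 in Tnfr1,2-/- glomeruli, 6.61, 6.09 and 7.30 in Tnfr1-/- glomeruli, 7.19, 7.76 and 8.26 in Tnfr2-/- glomeruli and 6.86, 7.53 and 8.44 in wildtype glomeruli. The means of both probe sets were lower in Tnfr1,2-/- and Tnfr1-/- glomeruli, but the Tnfr1,2-/- arrays overlapped with wildtype. The changes relative to wildtype were -0.50 and -0.63 in Tnfr1,2-/- glomeruli (limma, adjusted p = 0.84 for both), and -0.90 (adjusted p = 0.74) and -0.94 (adjusted p = 1) in Tnfr1-/- glomeruli. Over 6 arrays against 6 they were -0.74 (95% confidence interval -1.28 to -0.20, adjusted p = 0.29) and -0.85 (-1.51 to -0.18, adjusted p = 0.36). With the array set as a block, 1455965_at was called in the last comparison (-0.97, adjusted p = 0.03) and 1452595_at was not (-0.75, adjusted p = 0.18). With array weights in limma the reverse was found, with 1452595_at called (-0.93, adjusted p = 0.04) and 1455965_at not (-0.79, adjusted p = 0.17).

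The means of Adamts5 differed in the other direction. At 1456404_at its signal was 9.70, 9.70 and 10.66 in Tnfr1,2-/- glomeruli, 9.22, 9.35 and 9.97 in Tnfr1-/- glomeruli, 9.22, 8.76 and 9.03 in Tnfr2-/- glomeruli and 9.10, 8.68 and 9.18 in wildtype glomeruli. Every array of both Tnfr1 mutants was above every wildtype array, and replicate 3 was the highest of each of these mutants. The change relative to wildtype was 1.04 (SE 0.286, 95% confidence interval 0.40 to 1.67) in Tnfr1,2-/- glomeruli, which is 2.05-fold, at an unadjusted limma p of 0.0042 that did not pass after adjustment over all probe sets (adjusted p = 0.27). In Tnfr1-/- glomeruli it was 0.53 (adjusted p = 1), and over 6 arrays against 6 it was 0.77 (adjusted p = 0.12). At 1422561_at the changes relative to wildtype were 0.76 (adjusted p = 0.68) in Tnfr1,2-/- and 0.64 (adjusted p = 1) in Tnfr1-/- glomeruli, and at 1450658_at they were 1.13 (adjusted p = 0.74) and 0.21 (adjusted p = 1). These last 2 probe sets carry the same target accession in the annotation, so they are not separate evidence. The 3 probe sets correlated with each other over the 12 arrays (Pearson r between 0.70 and 0.89, a description over arrays that share genotypes and array sets). The fourth, 1456969_at, lay between 2.68 and 3.04 on all arrays, near the lowest signals measured, and gave no information on direction.

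**Figure D3:**
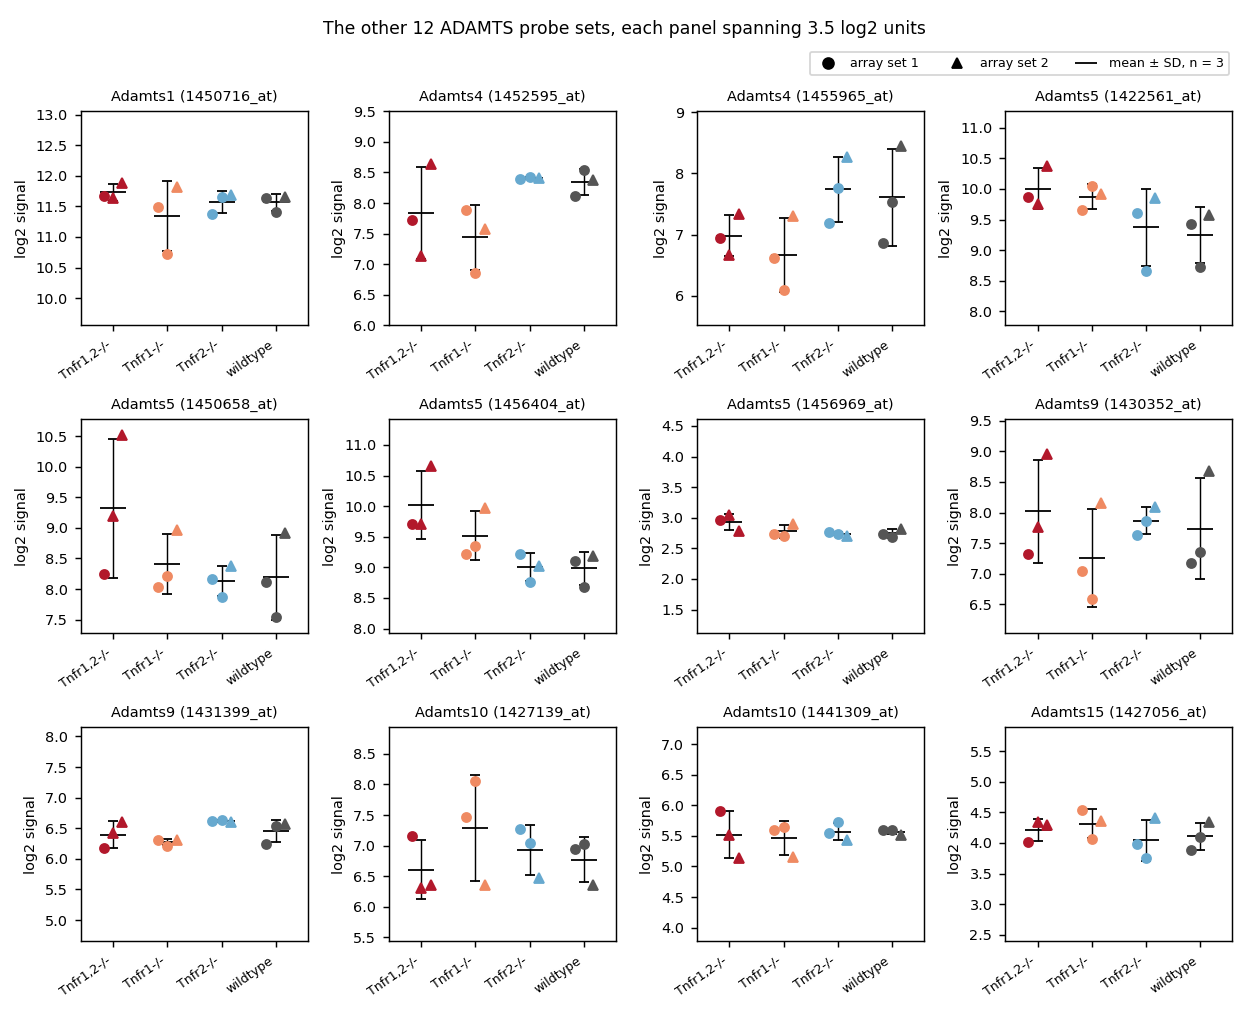
Log2 signal of the other 12 ADAMTS probe sets on each of the 12 arrays by genotype (circles, array set 1; triangles, array set 2; bars, mean ± SD of 3 arrays), with the same span of the vertical axis in every panel. Adamts4 is lower and Adamts5 1456404_at higher in Tnfr1,2-/- and Tnfr1-/- glomeruli on average, and 1430352_at of Adamts9 is highest on replicate 3 of every genotype.

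Adamts1, which cleaves versican and is needed for normal kidney development in the mouse, was not called in any comparison. Its single probe set read 11.67, 11.63 and 11.89 in Tnfr1,2-/- glomeruli, 11.49, 10.72 and 11.82 in Tnfr1-/- glomeruli, 11.37, 11.66 and 11.68 in Tnfr2-/- glomeruli and 11.63, 11.41 and 11.66 in wildtype glomeruli. Tnfr1-/- replicate 2 was the lowest of the 12 arrays, and the other 11 lay between 11.37 and 11.89. The change over 6 arrays against 6 was -0.03 (limma, 95% confidence interval -0.40 to 0.34, adjusted p = 0.99), an interval that does not reach 1.5-fold (0.585 log2 units) on either side. The intervals relative to wildtype were wider and did reach it, at -0.36 to 0.68 in Tnfr1,2-/- glomeruli and -0.74 to 0.30 in Tnfr1-/- glomeruli. Without Tnfr1-/- replicate 2 the change in Tnfr1-/- glomeruli was 0.09, against -0.22 with it. Adamts1 lies 55.0 kb from Adamts5 on chromosome 16, with Adamts1 at chr16:85793827-85803113 and Adamts5 at chr16:85858157-85901125. Neither neighbour was called by the test in any comparison. Adamts15, another protease of aggrecan and versican, lay between 3.75 and 4.53 on all 12 arrays, under the array medians. Its change was 0.19 (95% confidence interval -0.12 to 0.50, adjusted p = 0.82) over 6 arrays against 6. The robust multichip average compresses differences at such low signals.

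Adamts7, which cleaves cartilage oligomeric matrix protein, had the widest range of the 14 probe sets, 4.03 log2 units. Its single probe set, 1452339_at, read 7.79, 6.70 and 6.51 in Tnfr1,2-/- glomeruli, 7.70, 8.83 and 6.62 in Tnfr1-/- glomeruli, 10.54, 10.46 and 9.35 in Tnfr2-/- glomeruli and 10.15, 10.08 and 8.89 in wildtype glomeruli. The 2 groups of 6 arrays did not overlap, but Tnfr1-/- replicate 2 (8.83) and wildtype replicate 3 (8.89) nearly met. In Tnfr1-/-, Tnfr2-/- and wildtype glomeruli the lowest value was on replicate 3, an array of set 2, and in Tnfr1,2-/- glomeruli both set 2 arrays were under the set 1 array.

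Relative to wildtype, Adamts7 was 6.53-fold lower on average in Tnfr1,2-/- glomeruli, a log2 change of -2.71 (SE 0.58, 95% confidence interval -3.99 to -1.43) at an adjusted limma p of 0.09, which missed the threshold. In Tnfr1-/- glomeruli the change was -1.99 (95% confidence interval -3.27 to -0.71, adjusted p = 0.35), and in Tnfr2-/- glomeruli it was 0.41 (-0.87 to 1.69, adjusted p = 1). Adamts7 was called lower in Tnfr1,2-/- against Tnfr2-/- glomeruli, with a change of -3.12, or 8.70-fold (adjusted p = 0.04). It was also called over 6 arrays against 6, with a change of -2.55 (SE 0.41, 95% confidence interval -3.46 to -1.65, adjusted p = 0.0088), which is 5.87-fold. The change between Tnfr1,2-/- and Tnfr1-/- glomeruli was -0.72 (-2 to 0.56, adjusted p = 0.98), an interval wide enough to hold a 2-fold difference. Within array set 1 the change relative to wildtype was -2.33 in Tnfr1,2-/- and -1.85 in Tnfr1-/- glomeruli, and within set 2 it was -2.28 and -2.26.

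The Adamts7 comparisons with wildtype crossed the threshold under some settings and not under others. With 1 probe set per gene, which changes only the probe sets entered, Adamts7 was called in Tnfr1,2-/- glomeruli at the same change of -2.71 (adjusted p = 0.043) and not in Tnfr1-/- glomeruli (adjusted p = 0.2). With the array set as a block, the change was called in Tnfr1,2-/- glomeruli (-2.27, adjusted p = 0.00085) and in Tnfr1-/- glomeruli (-1.99, adjusted p = 0.0017). In Tnfr1-/- against wildtype, where same-numbered arrays deviated together, the replicate number was used as a block over the 9 arrays outside Tnfr1,2-/-. This limma fit, chosen after seeing the data, gave a call (adjusted p = 0.0026). Replicate 3 of those genotypes makes up their part of array set 2, so this block contains the array set and is not a separate adjustment. The SAM statistic called Adamts7 in Tnfr1,2-/- glomeruli (q = 0.017) and not in Tnfr1-/- glomeruli (q = 0.13). Of 12 fits that left out 1 array, 1 called Adamts7 in Tnfr1,2-/- against wildtype (without Tnfr1-/- replicate 2, adjusted p = 0.047) and 11 did not, with an adjusted p of up to 0.4 (without wildtype replicate 2). None of the 12 called it in Tnfr1-/- against wildtype (adjusted p between 0.15 and 0.99). The call against Tnfr2-/- glomeruli was lost in 8 of 12 fits that left out 1 array: without wildtype replicate 1 (adjusted p = 0.064) or 2 (0.07), Tnfr1,2-/- replicate 2 (0.18) or 3 (0.16), Tnfr1-/- replicate 1 (0.072), or Tnfr2-/- replicate 1 (0.19), 2 (0.2) or 3 (0.052). The 6-against-6 call was made in all 12 such fits (adjusted p between 0.0039 and 0.033).

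Adamts10, a microfibril-associated member, had 2 probe sets. At 1427139_at it read 7.16, 6.31 and 6.36 in Tnfr1,2-/- glomeruli, 7.47, 8.06 and 6.35 in Tnfr1-/- glomeruli, 7.27, 7.04 and 6.47 in Tnfr2-/- glomeruli and 6.94, 7.03 and 6.35 in wildtype glomeruli. All 5 arrays of set 2 lay between 6.31 and 6.47, and all 7 arrays of set 1 were above them. Within set 1, both Tnfr1-/- arrays were above the other 5, with a change relative to wildtype of 0.78, against 0 within set 2. The change over 6 arrays against 6 was 0.10 (limma, 95% confidence interval -0.54 to 0.74, adjusted p = 0.97). The second probe set, 1441309_at, lay between 5.14 and 5.91, close to the array medians, with a change of -0.08 (adjusted p = 0.95).

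The design gives TNF receptor 1 loss in 2 settings that share no array, Tnfr1-/- against wildtype with TNF receptor 2 present and Tnfr1,2-/- against Tnfr2-/- with it absent. In the first, 3 of the 14 probe sets had all mutant arrays below all wildtype arrays and 2 had all above, beside 4.63% and 5.16% of all probe sets. In the second these counts were 3 and 2, beside 4.59% and 5.86%, but not at the same probe sets. Adamts7 and Adamts9 1437785_at were below and Adamts5 1456404_at above in both settings. Adamts4 1452595_at (below) and Adamts5 1422561_at (above) separated in the first setting only. Adamts9 1431399_at (below) and Adamts5 1456969_at (above, near the lowest signals) separated in the second only. At 1431399_at the highest Tnfr1,2-/- array and the lowest Tnfr2-/- array both rounded to 6.60. For Tnfr1,2-/- against wildtype these counts were 2 and 2, beside 4.89% and 6.02%, and for Tnfr2-/- against wildtype 0 and 1, beside 2.76% and 2.18%. For Tnfr1,2-/- against Tnfr1-/- they were 0 and 0, beside 2.18% and 2.61%, and over 6 arrays against 6 they were 2 and 1, beside 1.23% and 0.884%. The probe set above in that last comparison was Adamts5 1456404_at, where the nearest arrays of both groups rounded to 9.22. The sign of the change was the same in both settings for 11 of 14 member probe sets (78.6%) and for 58.9% of all probe sets. A value lower by at least 1.5-fold in both was measured at 3 probe sets, Adamts7, Adamts9 1437785_at and Adamts4 1455965_at, beside 1.34% of all probe sets, and Adamts5 1422561_at was higher by at least 1.5-fold in both, beside 0.928%. No member probe set moved by 1.5-fold in opposite directions.

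The difference between the 2 settings was tested as the interaction of the receptor loci. No member probe set passed in limma, 0 of 14 had an unadjusted p under 0.05, and 0% of all genes were called. The interaction was -0.05 (95% confidence interval -0.52 to 0.42, adjusted p = 1) for Adamts9 1437785_at, an interval that does not reach 1.5-fold on either side. For Adamts7 it was -1.13 (-2.94 to 0.68, adjusted p = 1), and an interaction of more than 2-fold lies inside that interval.

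**Figure D4:**
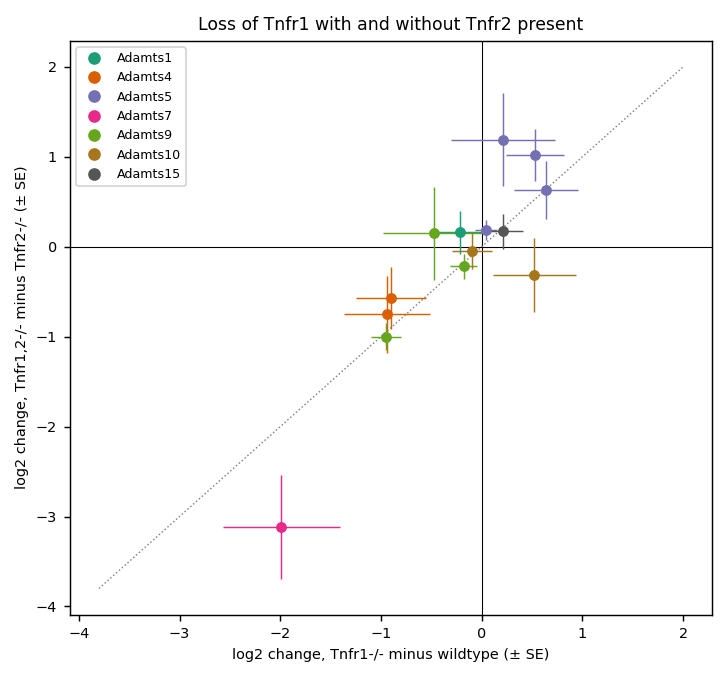
Log2 change (± SE from limma) of the 14 ADAMTS probe sets with TNF receptor 1 loss where TNF receptor 2 was present (horizontal axis, Tnfr1-/- minus wildtype) and where it was absent (vertical axis, Tnfr1,2-/- minus Tnfr2-/-), coloured by gene, with a dotted line of equal change. Adamts7 lies lowest at -1.99 and -3.12, and Adamts9 1437785_at lies near the line at -0.95 and -1.

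The genes around these proteases were counted from 7 lists: other ADAMTS proteases, ADAMTS-like proteins, the aggrecan and versican network, fibrillar procollagens with their processing enzymes, microfibril genes, other substrates, and inhibitors with activators and clearance receptors. Against wildtype, limma called none of the measured genes of any list in any mutant. Of the other ADAMTS proteases, 8 of 11 were measured by 14 probe sets, and 9 of these stayed under 6 log2 units on every array. Adamts12, which like Adamts7 cleaves cartilage oligomeric matrix protein and was named after its values were seen, read 6.95, 7.46 and 8.26 in Tnfr1,2-/- glomeruli and 6.65, 6.48 and 6.60 in wildtype glomeruli at 1439827_at, without overlap, and did not pass (0.98, adjusted p = 0.38).

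Over 6 arrays against 6, 4 list genes were called, which are also named after their values were seen. Among them were 1 of 10 procollagen and processing enzyme genes (higher) and 1 of 8 microfibril genes (lower). Of 14 inhibitors, activators and clearance receptors, 1 was higher and 1 lower. The other ADAMTS, ADAMTS-like, aggrecan and versican, and other substrate lists had 8, 7, 17 and 7 measured genes and held no called gene. Of all genes, 1.57% were called lower and 0.89% higher in this comparison. Timp3, the tissue inhibitor that blocks Adamts4 and Adamts5, was higher without TNF receptor 1 at 1449335_at (0.85, SE 0.139, limma, adjusted p = 0.0099). Its signal was 12.21, 12.05 and 12.20 in Tnfr1,2-/-, 12.08, 11.39 and 11.98 in Tnfr1-/-, 10.82, 11.07 and 11.36 in Tnfr2-/- and 11.24, 11.31 and 11.00 in wildtype glomeruli. All 6 arrays without the receptor were above all 6 with it, but Tnfr1-/- replicate 2 (11.39) and Tnfr2-/- replicate 3 (11.36) nearly met. Such a separation was found for 0.884% of all probe sets. The other 3 Timp3 probe sets were not called, with changes of 0.77 (1419089_at, adjusted p = 0.073), 0.61 (1449334_at, 0.32) and 0.44 (1419088_at, 0.88). Timp3 was also called in Tnfr1,2-/- against Tnfr2-/- glomeruli (1.07, adjusted p = 0.039). Syndecan Sdc1, a cell-surface proteoglycan, was lower at 2 of its 4 probe sets (-0.64, adjusted p = 0.035, and -0.72, adjusted p = 0.025), and the other 2 were not called (-1, adjusted p = 0.3, and -1.24, adjusted p = 0.8). Ltbp2, a microfibril-associated protein, was lower (-1.09, adjusted p = 0.0092), and was also called lower in Tnfr1,2-/- against Tnfr2-/- glomeruli (-1.35, adjusted p = 0.039). Its mean signal was 5.95, near the array medians. Over 6 arrays against 6, the collagen gene Col3a1 was higher at 1 of 2 probe sets (1.12, adjusted p = 0.031) and not called at the other (0.64, adjusted p = 0.28). Of 17 genes of the aggrecan and versican network, which includes Acan, Vcan and the hyaluronan synthases, 0 were called in this comparison and their median change was 0.01, the same as that of all probe sets.

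Of 8 marker lists for cell types, Itga8, a mesangial marker, was the 1 gene called against wildtype, higher in Tnfr1-/- glomeruli (1.40, limma, adjusted p = 0.012) at 1 of its 2 probe sets. There it read 11.28, 11.44 and 11.32 in Tnfr1,2-/-, 11.66, 12.11 and 11.68 in Tnfr1-/-, 11.16, 10.31 and 10.92 in Tnfr2-/- and 10.41, 10.31 and 10.50 in wildtype glomeruli. The mean of all 6 mesangial and smooth muscle markers ranged from 9.61 to 10.18 in Tnfr1,2-/-, 9.77 to 10.36 in Tnfr1-/-, 9.64 to 10.12 in Tnfr2-/- and 9.61 to 10.05 in wildtype glomeruli, with overlap among all genotypes. The 3 measured neutrophil markers S100a8, S100a9 and Mpo were all under the median signal and averaged 3.88 to 4.26 in Tnfr1,2-/-, 4.03 to 4.13 in Tnfr1-/-, 4.39 to 4.51 in Tnfr2-/- and 4.30 to 4.46 in wildtype glomeruli. The groups with and without TNF receptor 1 did not overlap in that mean, through S100a8 (-1.22 over 6 arrays against 6, adjusted p = 0.0049). The podocyte, endothelial, parietal, tubular, macrophage and lymphocyte lists held no called gene in any comparison. The part of any cell type in the Adamts9 and Adamts7 values was not tested.

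The genes whose pattern over the 12 arrays was most like Adamts9 1437785_at were Aebp2 (Pearson r = 0.972), Adhfe1 (0.969), Ttc39c (0.962), Acod1 (0.962) and Bmpr1b (0.962), among 18280 probe sets of other genes with a mean of at least 6. For Adamts7, added after its values were seen, the nearest was Tnfrsf1a itself (0.989), followed by Trim47 (0.982), Pnkd (0.982), Bst2 (0.98) and Irf1 (0.979), among 18282. The Tnfrsf1a signal read 9.61, 9.14 and 9.11 in Tnfr1,2-/- glomeruli, 9.80, 10.18 and 9.24 in Tnfr1-/- glomeruli, 10.77, 10.82 and 10.60 in Tnfr2-/- glomeruli and 10.70, 10.73 and 10.23 in wildtype glomeruli. Tnfr1-/- replicate 2 was the highest of the mutant arrays without TNF receptor 1 for both genes, and wildtype replicate 3 the lowest of the arrays with it. After each genotype's mean was taken out, the correlation of Adamts7 with Tnfrsf1a over the 12 arrays was 0.96, and that of Adamts9 with Tnfrsf1a was -0.70. These correlations are descriptions, since the 12 arrays share 4 genotypes and 2 array sets.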

How the data were processed

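The authors made biotin-labelled complementary RNA from total RNA of isolated, TNF-exposed glomeruli, hybridized it to Affymetrix mouse genome arrays, scanned them with GCOS, and normalized all 12 arrays together by the robust multichip average in RMA Express. The deposited values are log2 signals per probe set and were used as they are. The methods call the 3 preparations of a genotype independent, and nothing says that they came from separate mice, so the p-values measure the spread between preparations. The number of arrays limits the precision.

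Of 45101 probe sets, 64 are controls. Gene names came from the platform annotation given for this work: 34945 tested probe sets carry 1 symbol, 932 carry several and 9160 carry none, and only the first kind was named. Linear models with 1 mean per genotype were fitted to 45037 probe sets in R 4.3.3 with the moderated test of limma 3.58.1 (no trend, no block, 8 residual degrees of freedom). P-values were adjusted over all probe sets of each of 7 comparisons. The code was tested on simulated data. Same-numbered arrays were checked for shared deviations from their genotype means. Among Tnfr1-/-, Tnfr2-/- and wildtype all same-number correlations were over 0.1, and those of Tnfr1,2-/- replicate 2 were not.

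All 8 members were named, with up to 4 genes per list with the smallest adjusted p among those called against wildtype, both targeted genes, and the 5 genes most like a member called in Tnfr1,2-/- against wildtype. Genes named otherwise are marked in the text. The members, the lists and the tests were chosen with earlier results of these data known. Promoter sequences and gene positions are from RefSeq (GRCm38.p6). Real-time PCR, protein and flow cytometry measurements were not analysed here.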

Additional observations from a re-analysis of the deposited data

How the results depend on the processing

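Across 27 other settings, 1399 values of 70 results on members were recomputed. Of these, 1353 stayed on their side of the threshold, 31 lost a call and 15 gained one. No called value changed sign, and 57 values that were not called did. The count of member genes called in Tnfr1,2-/- against wildtype, 1 as reported, was 2 with 1 probe set per gene, with SAM, with array weights and with the array set as a block, 0 with probe sets averaged per gene, with only the compared arrays fitted and at a 2-fold threshold, and 0 to 2 with 1 array left out. In Tnfr1-/- against wildtype it was 1 as reported, 0 under those last 3 settings, 2 with the array set as a block, and 0 to 1 with 1 array left out. In Tnfr1,2-/- against Tnfr2-/- it was 2 as reported, 1 with averaged probe sets, 0 with only the compared arrays, 1 at 2-fold, and 0 to 2 with 1 array left out. Over 6 arrays against 6 it was 2 as reported. With array weights and with the array set as a block it was 3, with Adamts4 added. It was 1 with averaged probe sets, 1 at 2-fold, and 2 to 3 with 1 array left out. The cause of these shifts was not tested.

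With the replicate number as a block over all arrays, the counts were 3, 2, 3 and 4 in these 4 comparisons, the additions being Adamts7 against wildtype, Adamts5 1456404_at (adjusted p = 0.034 in Tnfr1,2-/- against wildtype) and Adamts4. Of 18 same-number pairs, 15 correlated over 0.1 and 14 were the best match. The pairs of Tnfr1,2-/- replicate 2 correlated at -0.31, -0.18 and -0.17, so the number does not pair that array. With the block over the 9 arrays outside Tnfr1,2-/-, a fit chosen after seeing the data, the count in Tnfr1-/- against wildtype was 2.

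Probe sets called lower and higher over the whole array numbered 203 and 75 in Tnfr1,2-/- against wildtype as reported, against 114 and 30 with only those arrays fitted, 556 and 556 with array weights, 442 and 325 with the replicate block, and 333 and 159 with the array set as a block. In Tnfr1-/- against wildtype they numbered 163 and 89, against 66 and 33, 252 and 162, 295 and 203, and 320 and 226, and 459 and 424 with the 9-array block. In Tnfr1,2-/- against Tnfr2-/- they numbered 235 and 65, against 130 and 28, 503 and 280, 551 and 263, and 383 and 123. Over 6 arrays against 6 they numbered 421 and 224, against 614 and 426 with array weights, 692 and 458 with the replicate block, and 611 and 396 with the array set as a block. The 3 arrays per genotype limit all these counts.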
